A study of Homo sapiens with 9 samples.

Results

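Transcribed unprocessed pseudogenes are copies of genes that arose when a stretch of DNA was duplicated. They keep introns and exons of the gene they were copied from, here called the parent gene, but no longer encode its intact protein, and they are still transcribed. Processed pseudogenes differ from them in that they were copied back into DNA from a spliced mRNA. The association of these RNAs with the nuclear poly(A) binding protein (PABPN) and its cytoplasmic counterpart (PABPC) is described here. Genes were chosen by biotype and by measured level, when both deposited tables gave them this biotype and a baseMean, the mean of normalised reads over the libraries of a table, above 50. This rule was met by 237 of 14581 genes that had baseMean above 50 in both tables. Of the 237 genes, 193 carried a gene symbol and 44 were listed under an Ensembl identifier only. In the later annotation used below for coordinates, GENCODE release 44, 232 of them kept this biotype, 4 were listed as protein-coding and 1 was absent.

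The data came from HEK293T cells, an established human embryonic kidney line that carries the SV40 large T antigen. All cells were crosslinked with 0.1% formaldehyde for 10 min. Total lysate was divided, endogenous PABPN or PABPC was immunoprecipitated with an antibody (RIP), and ribosomal RNA was removed before 75 nt reads were sequenced. The 3 groups were Input, PABPN RIP and PABPC RIP, each with 3 biological replicates and none with a treatment or genotype of its own. RNA from a control antibody was not analysed here.

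Poly(A) binding proteins coat the tails that are added to the 3' ends of most RNA polymerase II transcripts. PABPN binds the growing tail in the nucleus and helps to set its length, and PABPC binds the tail in the cytoplasm, where it acts in translation and in the control of mRNA decay. Here a value above 0 on the log2 scale is a larger share of the reads in the RIP than in Input (enriched), and a value below 0 a smaller one (depleted). Both are relative to Input, and less RNA per cell and fewer cells with the RNA cannot be told apart in such samples.

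The copies differ from their parent genes at scattered bases, which the following stretches show. Each pair gives 75 bases, the length of 1 read, from an exon of a pseudogene and from the coding sequence of the protein-coding gene it aligned to best. Each was taken where the number of mismatches was closest to that over the whole alignment, and mismatched bases are in capitals. The 6 pairs are shown because the results below turn on these pseudogenes. Sequence was read from hg38. The pseudogene stretches lie at chr17:18519590-18519664 on the minus strand (USP32P2), chr17:64751829-64751903 minus (KPNA2P3), chr15:22537496-22537570 plus (HERC2P2), chr7:72833828-72833902 plus (SBDSP1), chr15:82404655-82404729 plus (UBE2Q2P2) and chr10:45964767-45964841 minus (PARGP1). The parent stretches lie at chr17:5167942-5168016 plus (USP6), chr17:68045825-68045899 plus (KPNA2), chr15:28238640-28238714 minus (HERC2), chr7:66991163-66991237 minus (SBDS), chr15:75873474-75873548 plus (UBE2Q2) and chr10:49934059-49934133 minus (PARG).
USP32P2: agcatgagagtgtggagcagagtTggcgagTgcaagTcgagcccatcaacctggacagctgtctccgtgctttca
USP6: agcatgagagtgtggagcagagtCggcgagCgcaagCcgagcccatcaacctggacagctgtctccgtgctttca
KPNA2P3: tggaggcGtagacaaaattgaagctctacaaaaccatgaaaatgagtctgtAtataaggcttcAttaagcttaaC
KPNA2: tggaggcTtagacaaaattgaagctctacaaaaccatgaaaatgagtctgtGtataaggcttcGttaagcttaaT
HERC2P2: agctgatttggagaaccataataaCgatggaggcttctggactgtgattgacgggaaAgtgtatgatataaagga
HERC2: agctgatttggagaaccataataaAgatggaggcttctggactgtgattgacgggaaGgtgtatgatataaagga
SBDSP1: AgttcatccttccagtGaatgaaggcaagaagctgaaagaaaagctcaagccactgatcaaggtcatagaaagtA
SBDS: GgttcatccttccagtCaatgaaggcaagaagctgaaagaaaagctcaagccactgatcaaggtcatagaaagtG
UBE2Q2P2: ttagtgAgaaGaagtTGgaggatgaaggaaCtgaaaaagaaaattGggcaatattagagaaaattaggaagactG
UBE2Q2: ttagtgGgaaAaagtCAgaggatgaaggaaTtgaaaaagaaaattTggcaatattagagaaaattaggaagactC
PARGP1: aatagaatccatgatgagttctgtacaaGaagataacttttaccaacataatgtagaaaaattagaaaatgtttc
PARG: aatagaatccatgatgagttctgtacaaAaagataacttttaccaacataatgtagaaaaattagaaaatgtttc

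In these stretches the number of mismatches was 3 for USP32P2, 4 for KPNA2P3, 2 for HERC2P2, 3 for SBDSP1, 7 for UBE2Q2P2 and 1 for PARGP1. A read that falls between mismatches can belong to either copy. Over the reference exons of each pseudogene, a median of 2.69% of 75-base windows was found unchanged in transcripts of the parent gene (n = 214 with an alignment, quartiles 0% and 24.9%). The share was above 50% in 11 of them and 0% in 87. Windows shared with another of the 237 genes had a median of 0% and an upper quartile of 9.11% (n = 235), and 23 genes were above 50%, the highest being SMG1P1 (97.4%), H2BC19P (94.7%), SMG1P3 (93.6%), STAG3L1 (93.4%) and SMG1P2 (92.2%). Values of genes with many shared windows are uncertain, since how such reads were divided was not analysed here. The windows cover reference exons only, a median of 37.0% of the deposited exonic length. Sharing in the rest of that length and in introns, whose reads were also counted, was not measured.

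baseMean chose the genes, so levels are given as a description. Mean normalised reads per gene, with the PABPC libraries brought to the scale of the PABPN table through their common Input, had a median of 432.1 in Input, 617.1 in PABPN RIP and 244.2 in PABPC RIP. Input means ran from 39.9 for DSTNP2 to 9407 for SUZ12P1, a copy of the gene for the Polycomb subunit SUZ12. Reads on the 237 genes made up 0.494% of the reads on all listed genes in Input, 0.711% in PABPN RIP and 0.211% in PABPC RIP. Per kilobase of exon, the 3 highest Input levels among genes with a symbol were 3543 for UBE2Q2P2, 2491 for SUZ12P1 and 1593 for ZNF767P, against a median of 142 over the 237 genes and 302 over all genes. Intronic reads are in these counts, so a level per kilobase of exon is an upper value for a gene with much unspliced RNA.

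The threshold also shaped the set. The mean was below 50 in PABPC RIP for 26 of the 237 genes, in PABPN RIP for 2 and in Input for 2, and such genes passed through the group in which they were higher. Just inside the threshold were ULK4P1, with baseMean 95.5 and 50.7 in the PABPN and PABPC tables, and HERC2P3, with 124.6 and 50.9. Just outside were ENPP7P8, with 106.8 and 48.4, and FAM157A, with 68.2 and 47.8. Of the 852 genes of this biotype in the tables, 29 passed in the PABPN table only, with median log2 fold changes of 0.49 with PABPN and -0.997 with PABPC. A further 3 passed in the PABPC table only. Counts below describe the genes that passed and not the whole biotype.

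The pseudogenes were more often enriched with PABPN, and more often depleted from PABPC, than genes as a whole. With PABPN, 74 of the 237 genes were enriched (31.2%), against 17.0% of all genes tested, and 5 were depleted (2.11%), against 15.3%. With PABPC, 25 were enriched (10.5%), against 37.6% of all genes, and 141 were depleted (59.5%), against 32.9%. A gene was called when its log2 fold change was beyond 0.5 with an adjusted p of at most 0.01 in the authors' DESeq2 table. Over the 237 genes the median log2 fold change was 0.23 for PABPN and -0.93 for PABPC, against -0.06 and 0.11 over all 14581 genes, so that changes are read relative to these medians. These shares are a description, with no test of the set. PABPC values were spread more widely (SD over genes 1.27) than PABPN values (SD 0.64), and the typical standard error (SE) of 1 gene was 0.15 and 0.17.

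Both comparisons used the same Input libraries, so their values are set side by side. Of the 74 genes enriched with PABPN, 24 were depleted from PABPC (10.1% of the 237, against 2.56% of all genes), 17 were enriched with PABPC (7.17%, against 7.63%) and 33 were not called with PABPC (13.9%, against 6.77%). Depletion from PABPC without a PABPN call was the most frequent pattern, with 113 genes (47.7%), and it was also the most frequent one over all genes (27.5%). Depletion from both was called in 4 genes (1.69%, against 2.83%).

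**Figure D1:**
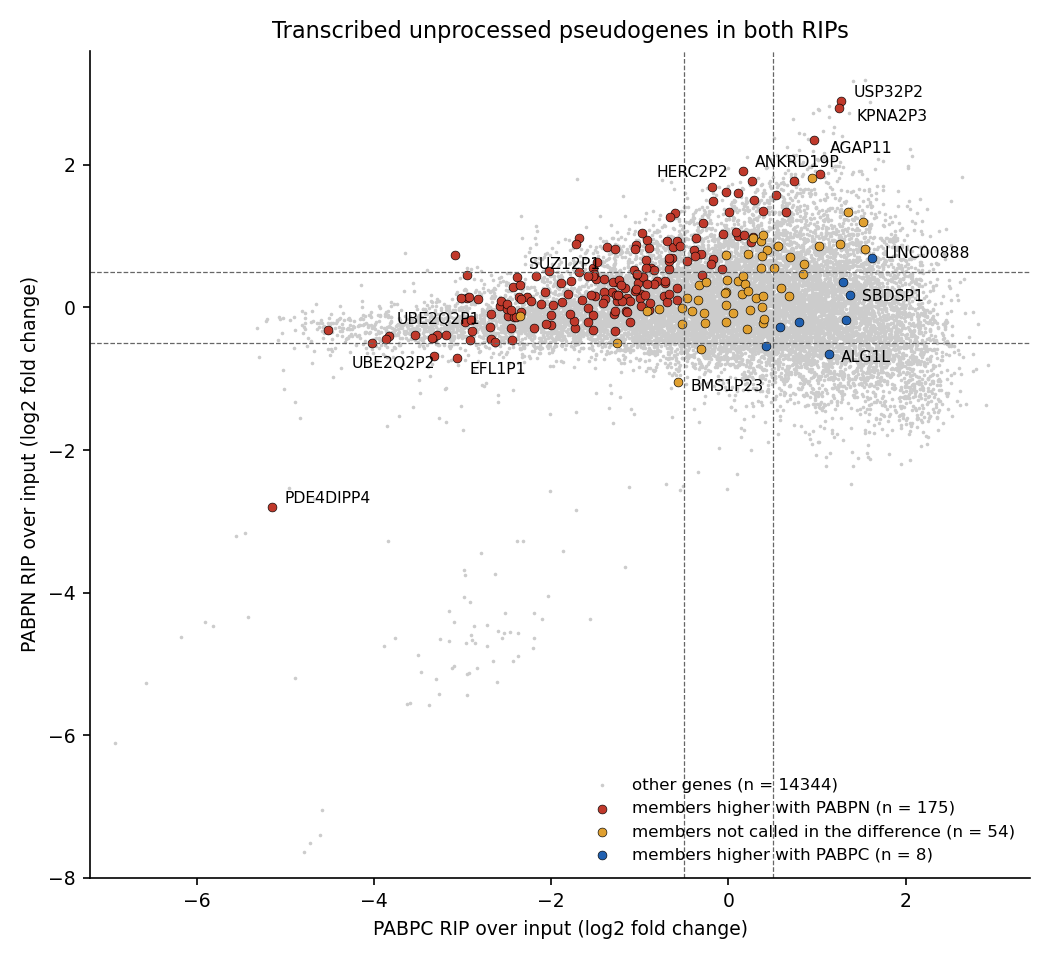
Log2 fold change of PABPC RIP over Input (x axis) against PABPN RIP over Input (y axis) for each gene with baseMean above 50 in both tables. The 237 pseudogenes are coloured by the call on the difference between both fold changes, other genes are grey, and dashed lines mark changes of 0.5. Most pseudogenes lie left of 0 on the PABPC axis and between -1 and 2 on the PABPN axis, with PDE4DIPP4 alone at -2.80.

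The direct comparison asked which protein each RNA favoured. The difference of both log2 fold changes (PABPN minus PABPC) was tested with a two-sided normal test and BH adjustment over all 14581 genes. With PABPN the value was higher in 175 of the 237 genes (73.8%), against 36.1% of all genes, and with PABPC it was higher in 8 (3.38%), against 33.4%. The median difference was 1.38 (quartiles 0.69 and 2.01), against 0.07 over all genes.

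Other gene classes of the tables were placed beside the pseudogenes as a description. Long non-coding RNAs (lncRNAs, n = 1661) had a median PABPN value of 0.22 and a median PABPC value of -1.26, with 28.7% enriched with PABPN and 61.6% depleted from PABPC. Unprocessed pseudogenes without the transcribed label (n = 51) had -0.03 and -1.12, with 25.5% enriched with PABPN and 64.7% depleted from PABPC. Transcribed processed pseudogenes (n = 57) had 0.25 and -0.60. Protein-coding genes (n = 12452) had -0.09 and 0.24, with 14.9% enriched with PABPN and 28.2% depleted from PABPC. Processed pseudogenes (n = 29) had -1.14 and 1.87, the reverse order. The medians of the transcribed unprocessed pseudogenes thus lay nearer to those of lncRNAs than to those of protein-coding genes.

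**Figure D2:**
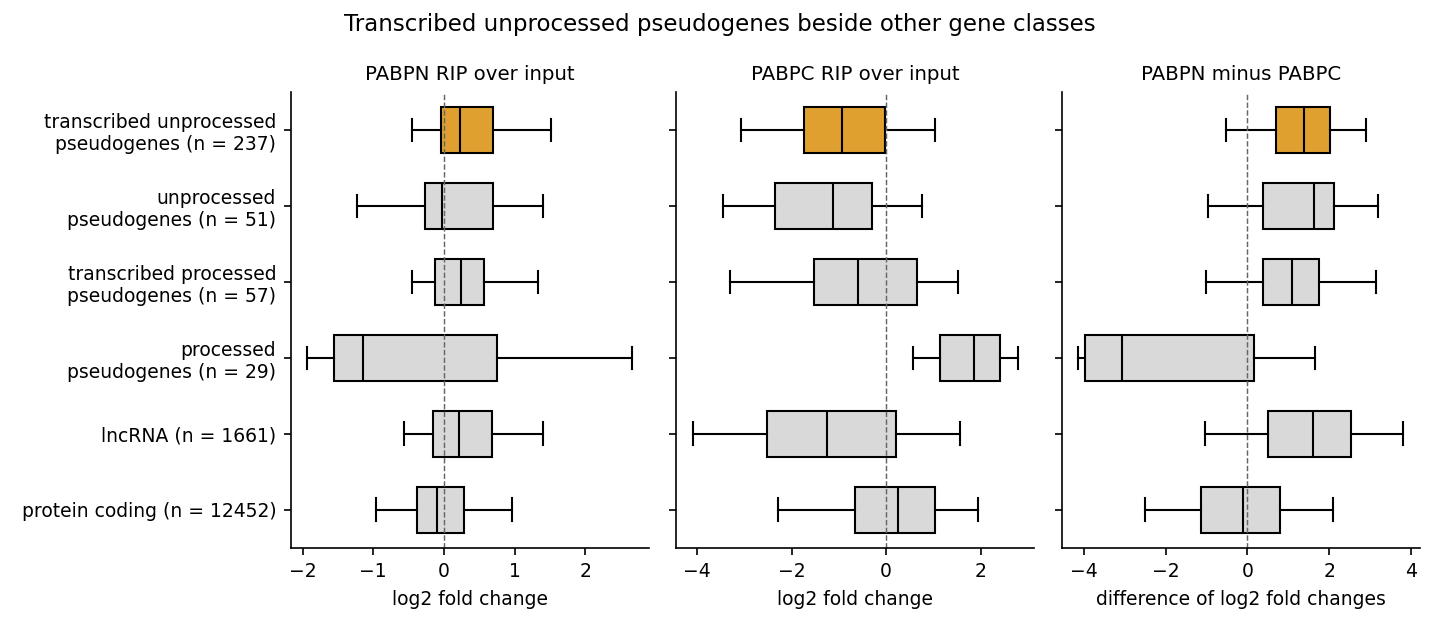
Log2 fold change with PABPN (left), with PABPC (middle) and their difference (right) for 6 gene classes. Boxes span the quartiles with the median as a line and whiskers span the middle 90% of genes. The 237 pseudogenes (orange) lie around 0.23 (PABPN) and -0.93 (PABPC) by the median, and protein-coding genes of -0.09 and 0.24.

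The highest PABPN values belonged to copies of deubiquitinase, nuclear import and signalling genes. USP32P2 lies at chr17:18513285-18519674 and shares exons with USP6 and USP32, which encode deubiquitinating enzymes. Its mean normalised reads were 220.5 in Input, 1644 in PABPN RIP and 531 in PABPC RIP, so both RIPs were above Input and PABPN RIP was highest. The log2 fold changes were 2.90 with PABPN (SE 0.14) and 1.27 with PABPC (SE 0.16), with a difference of 1.63 (SE 0.22, BH-adjusted p 1.30e-13, normal test). USP32 itself had -0.24 with PABPN (SE 0.10) and -1.24 with PABPC (SE 0.11). A second copy, USP32P3, had 1.69 with PABPN (SE 0.19) and -0.18 with PABPC (SE 0.24).

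KPNA2P3, at chr17:64749918-64758603, is a copy of KPNA2, the gene for an importin alpha that carries proteins into the nucleus. Its mean was 291.5 in Input, 2024 in PABPN RIP and 694.6 in PABPC RIP. The log2 fold change was 2.80 with PABPN (SE 0.11) and 1.25 with PABPC (SE 0.13). KPNA2 had -1.72 with PABPN (SE 0.17) and 0.18 with PABPC (SE 0.18), so the copy and its parent lay on opposite sides of Input in the PABPN RIP. AGAP11, from a family of ArfGAP genes, had 2.34 with PABPN (SE 0.23) and 0.96 with PABPC (SE 0.26).

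ANKRD19P, an ankyrin repeat gene copy, rose from 1720 reads in Input to 6469 in PABPN RIP and had 1920 in PABPC RIP. Its log2 fold change was 1.91 with PABPN (SE 0.10) and 0.16 with PABPC (SE 0.11), which was not called. PKD1P5, a copy of the polycystin gene PKD1, had 1.82 (SE 0.25) and 0.94 (SE 0.23). HERC2P2, a copy of the ubiquitin ligase gene HERC2, had 1.77 (SE 0.13) and 0.27 (SE 0.13), and NPIPP1, of the nuclear pore interacting protein family, had 1.77 (SE 0.14) and 0.74 (SE 0.15). These genes were called enriched with PABPN, and the differences were called for each of them except PKD1P5, with 0.88 (SE 0.34, BH-adjusted p 0.0136, normal test). Shared windows were frequent in several of them, with 70.8% of HERC2P2, 49.1% of PKD1P5 and 39.4% of USP32P2 found in another of the 237 genes, and 40.1% of NPIPP1 found in its parent.

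The 5 genes depleted from PABPN were PDE4DIPP4, BMS1P23, EFL1P1, DNM1P51 and ENSG00000257489. PDE4DIPP4, a fragment related to PDE4DIP, which encodes a centrosomal and Golgi protein, had means of 164.6 in Input, 23.6 in PABPN RIP and 4.64 in PABPC RIP, with log2 fold changes of -2.80 (SE 0.30) and -5.15 (SE 0.51). Both RIP means were below 50, so PDE4DIPP4 passed the baseMean threshold through Input alone, and its depletion is bound up with that choice. As a description, it had the lowest log2 fold change of the 237 genes in both RIPs. BMS1P23 followed with -1.05 with PABPN (SE 0.29), and its PABPC value of -0.57 (SE 0.32) was not called. EFL1P1, a copy of a ribosome maturation GTPase gene, had -0.71 with PABPN (SE 0.11) and -3.06 with PABPC (SE 0.16), and the parent EFL1 had -0.53 (SE 0.12) and -1.83 (SE 0.13). DNM1P51, related to a dynamin gene, had -0.50 (SE 0.17) and -1.26 (SE 0.26), a PABPN value close to the cut-off.

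**Figure D3:**
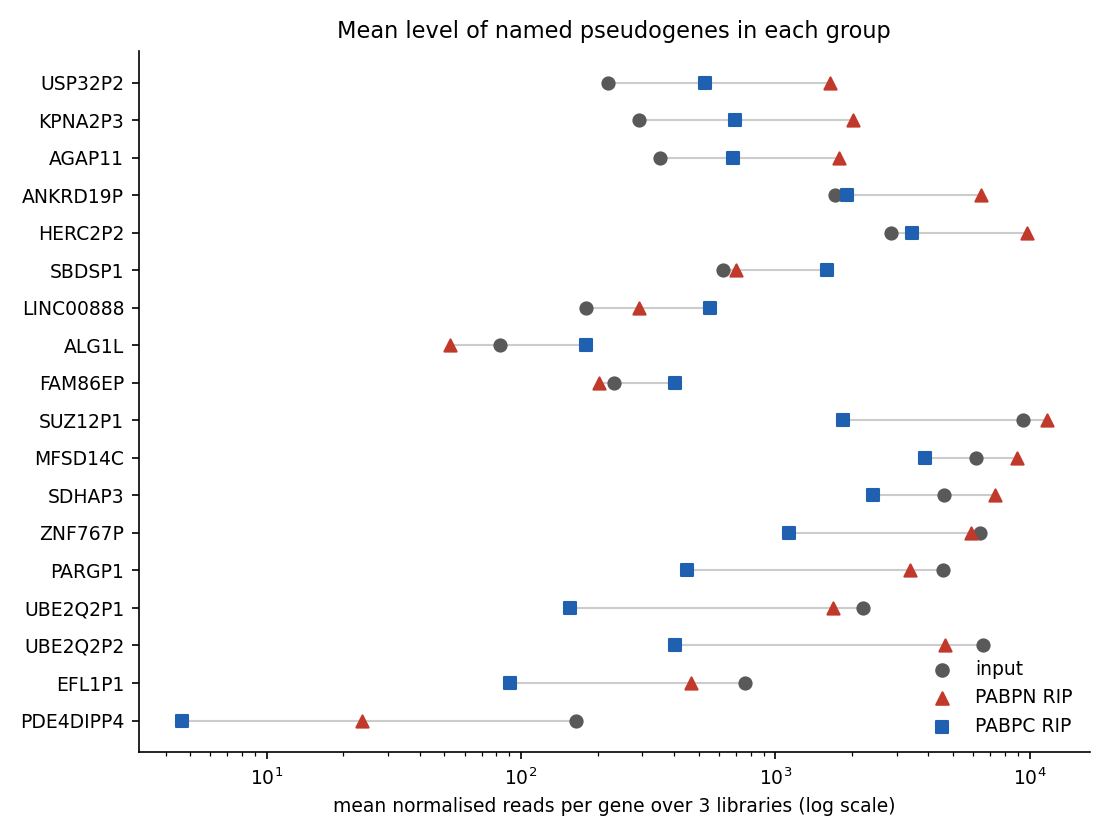
Mean normalised reads per gene (x axis, log scale) in Input (circles), PABPN RIP (triangles) and PABPC RIP (squares), each a mean over 3 libraries worked out from the deposited mean and fold change, for 18 named pseudogenes. USP32P2, KPNA2P3 and AGAP11 are lowest in Input and highest in PABPN RIP, SBDSP1, LINC00888, ALG1L and FAM86EP are highest in PABPC RIP, and the lower rows are lowest in PABPC RIP.

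Depletion from PABPC was large for abundant pseudogenes that were not called with PABPN. Of these, UBE2Q2P2, UBE2Q2P1 and PARGP1 were also below Input with PABPN, by less than the cut-off of 0.5. UBE2Q2P2, a copy of a ubiquitin-conjugating enzyme gene at chr15:82391844-82420075, had means of 6572 in Input, 4670 in PABPN RIP and 404.9 in PABPC RIP. Its log2 fold changes were -0.49 (SE 0.09) and -4.02 (SE 0.12), and the difference of 3.53 (SE 0.15) was the largest among those with a symbol. UBE2Q2P1 had -0.40 (SE 0.12) and -3.83 (SE 0.14). UBE2Q2 had 0.10 with PABPN (SE 0.09) and -0.22 with PABPC (SE 0.10). PARGP1, a copy of the gene for the enzyme that removes poly(ADP-ribose), fell from 4552 reads in Input to 449.5 in PABPC RIP, with 3378 in PABPN RIP. Its PABPC value was -3.34 (SE 0.12), against -0.79 (SE 0.13) for PARG.

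CCDC144B (-3.34, SE 0.19), ANKRD20A8P (-3.29, SE 0.27) and LINC01881 (-3.19, SE 0.15) had PABPC values of the same order and PABPN values from -0.43 to -0.39 that were not called. ANKRD20A8P was the least abundant of them, with means of 292.8 in Input, 224 in PABPN RIP and 29.97 in PABPC RIP. It passed the baseMean threshold through Input and PABPN RIP, so its depletion from PABPC is bound up with that choice. SUZ12P1, the gene with the highest baseMean, had 9407 reads in Input, 11660 in PABPN RIP and 1845 in PABPC RIP. Its log2 fold changes were 0.31 (SE 0.10, not called) and -2.35 (SE 0.10), while SUZ12 had -0.09 (SE 0.10) and 0.11 (SE 0.12). ZNF767P, a zinc finger gene copy, had -0.12 (SE 0.09) and -2.49 (SE 0.11). Among other abundant genes, SEPTIN7P14 had -1.88 (SE 0.13) and CRYBB2P1 -1.73 (SE 0.10) with PABPC. SVIL-AS1 (-0.73, SE 0.11) and EMC3-AS1 (-1.03, SE 0.10) carry names of antisense genes. The authors took regions shared by overlapping genes out of the annotation, but whether counting used the strand of the stranded libraries was not given in the sources used here, so their values are uncertain.

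CROCCP2, another abundant gene, was enriched with PABPN (0.75, SE 0.09) and not called with PABPC (-0.31, SE 0.09). Enrichment with PABPN and depletion from PABPC were both called in 24 genes. The abundant ones included MFSD14C, related to a transporter gene, with 0.53 (SE 0.10) and -0.67 (SE 0.10), and SDHAP3, a copy of the succinate dehydrogenase subunit gene SDHA, with 0.66 (SE 0.09) and -0.93 (SE 0.10). RPL32P3 had 1.27 (SE 0.10) and -0.66 (SE 0.11), and LRP5L, related to a Wnt coreceptor gene, had 0.97 (SE 0.17) and -1.69 (SE 0.11). Copies of the cohesin gene STAG3 were in the group, with PABPN values of 1.04 for STAG3L2 (SE 0.12), 0.85 for STAG3L1 (SE 0.20) and 0.64 for STAG3L3 (SE 0.14). The PABPC RIP mean of STAG3L1 was 40.78, below the baseMean threshold of 50, so its calls are bound up with that choice.

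The 17 genes enriched in both RIPs included 2 copies of histone H2B genes, H2BC19P and H2BC20P, each a single exon stretch in the reference. Their log2 fold changes were 1.34 (SE 0.14) and 0.86 (SE 0.13) with PABPN, and 0.65 (SE 0.17) and 0.56 (SE 0.14) with PABPC. H2BC21, the histone gene both aligned to best, had -4.04 with PABPN (SE 0.14) and -2.04 with PABPC (SE 0.17). Transcripts of most replication-dependent histone genes end in a stem-loop and not in a poly(A) tail. Of the windows of H2BC19P, 94.7% were found in another of the 237 genes. DSTNP2, a copy of the actin depolymerizing factor gene DSTN, had 1.33 (SE 0.28) and 1.35 (SE 0.28), at a low mean of 39.9 reads in Input. It passed the baseMean threshold through its RIP means of 100.5 (PABPN) and 101.6 (PABPC), so its enrichment is bound up with that choice.

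Values higher with PABPC than with PABPN were called in 8 genes. ALG1L, a copy of a glycosylation enzyme gene, had the largest difference of -1.78 (SE 0.35, BH-adjusted p 5.96e-07, normal test), with means of 82.8 in Input, 52.7 in PABPN RIP and 180.9 in PABPC RIP. ALG1 itself had -0.71 with PABPN (SE 0.16) and 0.72 with PABPC (SE 0.16). SBDSP1, a copy of the ribosome maturation gene SBDS, went from 622 reads in Input to 1604 in PABPC RIP, with 702.8 in PABPN RIP. Its PABPC value of 1.37 (SE 0.12) lay beside 1.32 for SBDS (SE 0.16), and its PABPN value of 0.18 (SE 0.12, not called) lay above the -1.13 of SBDS (SE 0.15). Under 1% of the SBDSP1 windows (0.905%), which cover its reference exons only, were found in SBDS transcripts.

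LINC00888 had the highest PABPC value of the 237 genes, at 1.62 (SE 0.20), with 0.69 with PABPN (SE 0.18). No protein-coding transcript aligned to it. GBP1P1, a copy of an interferon-induced GTPase gene, had 1.29 with PABPC (SE 0.23) and 0.36 with PABPN (SE 0.23, not called). The FAM86 copies FAM86EP, FAM86C1P and FAM86C2P made up most of the others, with differences of -0.9997 (SE 0.23), -0.85 (SE 0.23) and -0.97 (SE 0.27). Other genes high with PABPC were GOLGA2P7 (1.54, SE 0.23), a copy of a Golgi matrix gene, and AMZ2P1 (1.26, SE 0.16), a copy of a metalloprotease gene, whose differences were not called. For GOLGA2P7, 80.5% of windows were found in another of the 237 genes.

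Each pseudogene was then set beside its parent gene. The parent was taken as the protein-coding gene with the best alignment, which need not be the gene a copy came from. For 158 pseudogenes an alignment of at least 300 bases led to a gene that was itself among the 14581, and these genes numbered 104. The alignment covered under 50% of the reference exons in 5 pairs, such as METTL21EP with SERPINB1 and ZNF883 with RPAP2, and RHOXF1P1 aligned best to RHOXF1P3, itself one of the 237 genes. The median log2 fold changes of the parents were -0.11 with PABPN and -0.01 with PABPC, and those of their pseudogenes were 0.20 and -0.91. Of the 104 parents, 18 were enriched with PABPN and 31 were depleted from PABPC, while 46 and 92 of the 158 pseudogenes had these calls. Over all genes the shares with these calls were 17.0% and 32.9%, and those of the parents were near them. The pseudogene was above its parent with PABPN in 110 of 158 pairs (median of pseudogene minus parent 0.26) and below it with PABPC in 115 (median -1.01). With 1 value per parent, the medians over the 104 parents were 0.24 and -1.01. Without those 6 pairs, a choice made after seeing the data, the medians over 152 pairs were 0.29 and -1.04. No p is given for these counts, since parents share copies and both genes were measured in the same libraries. Across pairs the ranks of pseudogene and parent were weakly related (Spearman rho 0.22 with PABPN, 0.20 with PABPC, 158 pairs that share libraries and, in part, reads).

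In 30 pairs, or 29 without the pair of METTL21EP, the difference between the RIPs was called in opposite directions, higher with PABPN for the pseudogene and higher with PABPC for the parent. Both were called higher with PABPN in 50 pairs and both higher with PABPC in 5. With the parent called higher with PABPC, the pseudogene was not called in a further 10 pairs. With an uncalled parent, 38 pseudogenes were higher with PABPN, 12 were not called and 1 was higher with PABPC. Of all 158 pseudogenes in pairs, 118 were called higher with PABPN, a call that was frequent whatever the parent's call and was made in 36.1% of all genes. CFL1P1, a copy of the cofilin gene CFL1, had a difference of 1.11 (SE 0.34), against -3.67 (SE 0.21) for CFL1. CCT6P3, a copy of a chaperonin subunit gene, had 2.45 (SE 0.20), against -1.91 (SE 0.25) for CCT6A, and LINC01881 had 2.80 (SE 0.19), against -1.05 (SE 0.15) for FBXO25, with which it shares an aligned stretch.

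**Figure D4:**
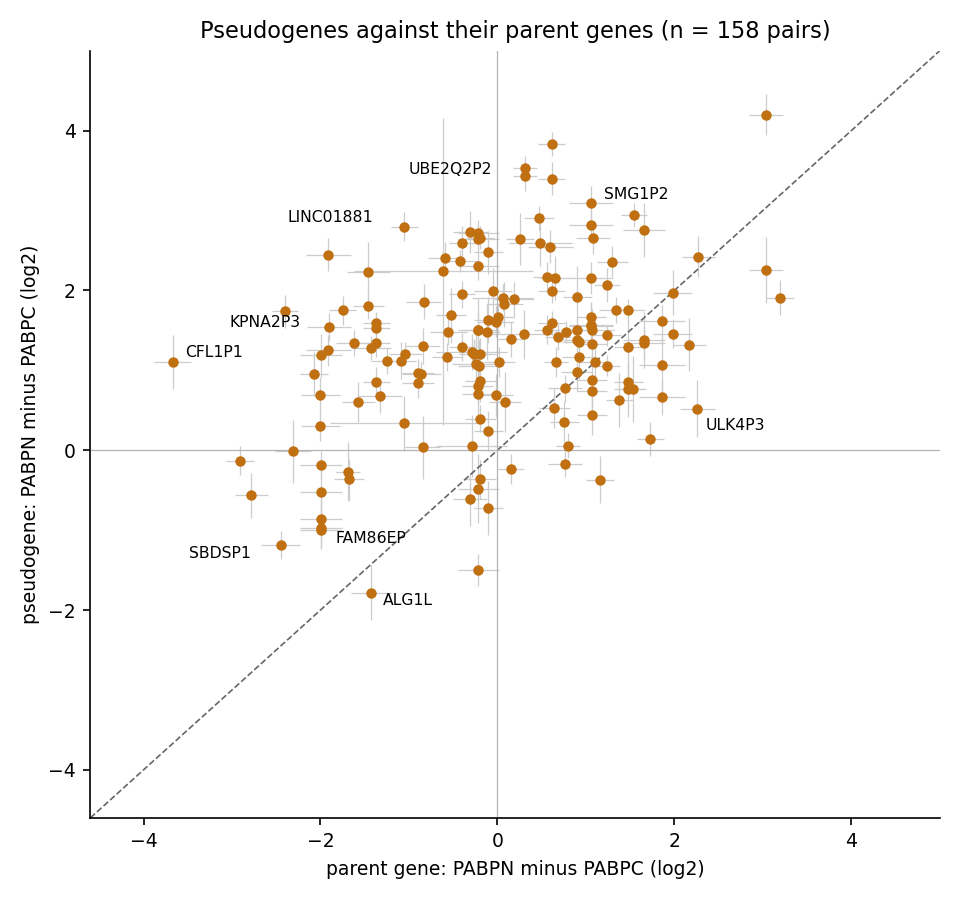
Difference between the PABPN and PABPC log2 fold changes of the parent gene (x axis) and of the pseudogene (y axis) for 158 pairs. Bars are SEs and the dashed line marks equal values. In 125 pairs the point lies above the line, and CFL1P1 and KPNA2P3 lie at the left with parents below 0.

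In 17 families at least 3 pseudogenes shared a parent, with 66 pseudogenes in all. Each pseudogene of 11 families was called higher with PABPN than with PABPC, and each pseudogene of 6 families was called depleted from PABPC. Both calls were frequent over all the pseudogenes described here, at 73.8% and 59.5%, and most families were small. Whether the family counts exceed what such shares would give was not tested, so they are not read as a property of families. The family median with PABPC was below the parent in 13 of the 16 families whose parent had values. The copies of SMG1, which encodes a kinase of nonsense-mediated decay, had PABPC values from -2.95 (SMG1P2) to -1.59 (SMG1P4) and PABPN values from -0.29 (SMG1P5) to 0.43 (SMG1P3), and no PABPN call. SMG1 had 1.01 with PABPN (SE 0.19) and -0.05 with PABPC (SE 0.16). Since most windows of these 5 copies are shared among them, their values are not independent. In other families the share of windows found in another pseudogene varied by copy. It was 70.8% for HERC2P2, 93.4% for STAG3L1 and 61% for SDHAP2, but 0.765% for SDHAP3 and 0% for STAG3L4. Copies with a high share cannot be taken as independent either.

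The 4 copies of SDHA had PABPN values from 0.08 (SDHAP2) to 0.68 and PABPC values from -1.31 (SDHAP1) to -0.18, while SDHA had -1.16 (SE 0.11) and 0.22 (SE 0.11). The 3 copies of SEPTIN7, a cytoskeletal GTPase gene, had PABPC values from -2.17 (SEPTIN7P13) to -1.06 (SEPTIN7P2), against -0.17 (SE 0.11) for the parent. The 4 copies of the lysosomal enzyme gene GUSB had PABPC values from -3.09 to -1.07 (GUSBP1), against -0.02 (SE 0.11). GUSBP2, from 724.2 reads in Input to 93.5 in PABPC RIP, had -2.96 (SE 0.17). The 3 HERC2 copies had PABPN values from 0.43 (HERC2P9) to 1.77 (HERC2P2), against 0.03 (SE 0.13) for HERC2, and PABPC values from -0.96 to 0.27, on either side of the -0.87 of HERC2 (SE 0.10).

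Other families were mixed. Among 6 copies of BMS1, a ribosome biogenesis GTPase gene, PABPN values ran from -1.05 (BMS1P23) to 1.61 (BMS1P3) and PABPC values from -2.56 (BMS1P2) to 1.32 for a copy without a symbol, around a parent at -0.68 (SE 0.15) and -0.47 (SE 0.18). The 6 FAM86 genes that aligned best to EEF2KMT, which encodes a methyltransferase of elongation factor 2, had PABPC values from -0.39 (FAM86B3P) to 0.80 (FAM86EP). None of them was depleted, and all lay below the parent at 1.54 (SE 0.15). FAM86HP and FAM86FP, which aligned best to FAM86B1, had -1.28 (SE 0.18, depleted) and -0.27 (SE 0.29, not called) with PABPC. The 4 GOLGA2 copies spread from -2.50 (GOLGA2P10) to 1.54 (GOLGA2P7) with PABPC. For GTF2I, a transcription factor gene, the 4 copies had PABPC values from -1.21 (GTF2IP20) to -0.59 (GTF2IP13) and lay above the parent at -2.01 (SE 0.12). The 4 PKD1 copies had PABPN values from 0.10 (PKD1P4) to 1.82 (PKD1P5), around PKD1 at 1.07 (SE 0.13). PMS2 copies, from a mismatch repair gene, had PABPC values from -1.53 (PMS2P3) to 0.38 (PMS2P1). PMS2CL had a PABPN value of 0.38 (SE 0.12). Further families were those of WHAMM, DPY19L2, AGAP5, STAG3 and UBE2Q2. WHAMMP3 had 0.98 (SE 0.18) with PABPN and 0.27 (SE 0.19) with PABPC, and WHAMMP2 had 0.61 (SE 0.14) with PABPN and -0.19 (SE 0.18) with PABPC. DPY19L2P1 had 0.21 (SE 0.14) with PABPN and -1.40 (SE 0.15) with PABPC, beside DPY19L2P2 with 0.92 (SE 0.17) and 0.25 (SE 0.15). CCNYL4, which aligned to AGAP5, had -0.21 (SE 0.17) with PABPN and -2.97 (SE 0.29) with PABPC. With a PABPC RIP mean of 25.97, below 50, it passed the baseMean threshold through the other groups, so this depletion is bound up with that choice. STAG3L4 had 0.37 (SE 0.10) with PABPN and -0.80 (SE 0.11) with PABPC, and GOLGA2P5 had 0.93 (SE 0.19) with PABPN and -0.70 (SE 0.21) with PABPC. A last family was made of 4 genes without symbols that aligned to 216 to 222 bases of RBFOX1, which is under the minimum used for the pairs above, though this family is among the 16.

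**Figure D5:**
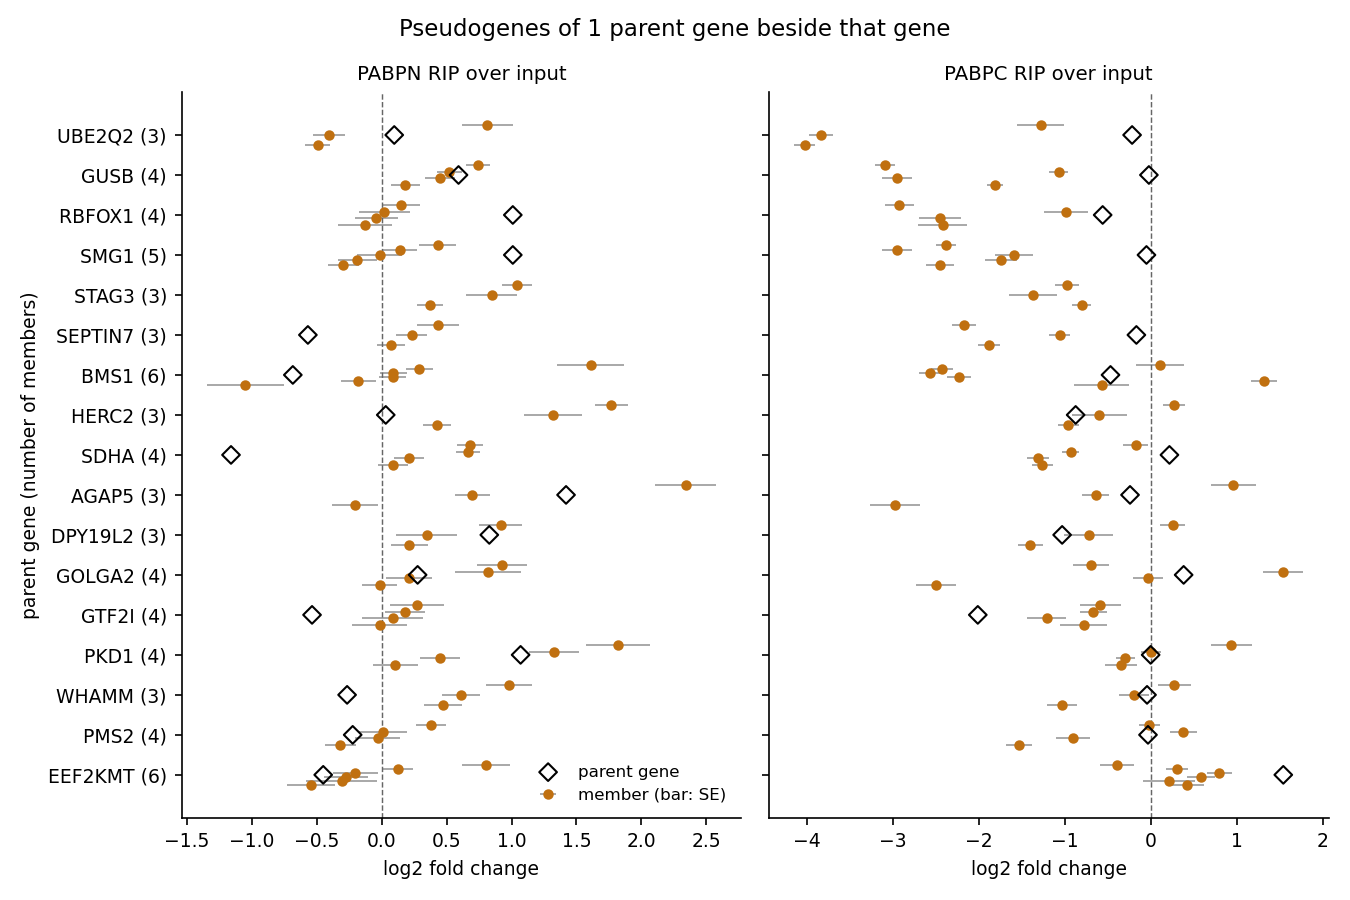
Log2 fold change over Input with PABPN (left) and PABPC (right) for the 17 families of at least 3 pseudogenes, ordered by their median difference. Circles are pseudogenes with SE bars and open diamonds are the parent gene, which had no value for STAG3. The SMG1, SEPTIN7, GUSB and SDHA copies lie left of their parents with PABPC, and the GTF2I copies lie right of theirs.

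Position and structure were described for the 236 genes found in GENCODE release 44. The largest numbers lay on chromosomes 7 (33 genes), 15 (25), 1 (23) and 16 (20), and the median PABPC value on the 8 chromosomes with at least 10 of the genes ran from -1.14 (chromosome 10) to -0.47 (chromosome 17). On chromosome 15 between 82 and 85 Mb, a window chosen after the values were seen, lay 7 of the genes, of which 5 were depleted from PABPC, and depletion was called in 59.5% of the 237 genes. UBE2Q2P2, GOLGA2P10, EFL1P1, DNM1P51 and UBE2Q2P1 had values from -4.02 to -1.26, while GOLGA2P7 had 1.54 and SCAND2P 0.11 (SE 0.11). The genes had a median of 6 separate exon stretches and a span of 13090 bases. In 3 equal groups by span, the median PABPC value was -0.66, -0.69 and -1.31 from the shortest to the longest, and the number enriched with PABPN was 32, 24 and 18. In 3 equal groups by the deposited exonic length, 17, 22 and 35 of 79 genes were enriched with PABPN, and the median PABPN value was 0.09, 0.21 and 0.42. Their median baseMean in the PABPN table also rose, from 325 to 515 and 825. Length and level were not told apart here.

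A poly(A) signal was looked for at the annotated ends. AATAAA or ATTAAA was found on the transcribed strand in the last 50 bases of 26 of 236 genes (11%). The share was 9.8% for the unprocessed pseudogenes without the transcribed label (5 of 51), 45.2% for lncRNAs and 69.8% for all genes. Genes with such a match had median values of 0.25 (PABPN) and -0.81 (PABPC, n = 26), and those without had 0.23 and -0.93 (n = 210). The reference exons came to a median of 37.0% of the deposited exonic length, so the annotated end may not be the end of the counted transcript. Among the 39 genes whose reference exons came close to the deposited length, 12.8% had a match, against 71.6% of all such genes. A missing match says only that these letters are absent from that window.

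The line was checked by Input means. VIM (15700), NEFM (66400) and NEFL (19400), which HEK293T cells are known to express, were high, while INA (259) and PAX2 (294), of the same marker list, were low. The blood cell genes PTPRC and HBB were at 0.693 and 0, and COL1A1, a fibroblast gene, had 304.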

How the data were processed

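RNA was measured in Input, PABPN RIP and PABPC RIP libraries, with 3 biological replicates each, and a lysate was divided between both antibodies. Per the labels and the study's methods, the authors aligned reads to hg38 with STAR, counted exonic and intronic reads with featureCounts 2.0.2 on annotation derived from GENCODE 34, took out of that annotation regions shared by overlapping genes, removed genes with read-in transcription from upstream, and ran DESeq2. The deposited tables, 1 for each RIP against Input, give the mean normalised signal (baseMean), the log2 fold change with its SE, the Wald score, p-values with BH adjustment, and the exonic length. They hold the authors' own comparisons. Their fold changes were used because these were the only measurements analysed here. Values per library were not analysed, so the depth of each library was not worked out and the SE is the precision given.

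The first row of each Ensembl identifier was kept. Group means were worked out from baseMean and fold change, taking equal group sizes. A gene was called with a log2 fold change beyond 0.5 and an adjusted p of at most 0.01. ASNSP1 had no adjusted p in the PABPN table and was not called there. The difference of both fold changes was tested with a two-sided normal test whose SE treats them as independent, although both share the Input libraries. The test was also run on simulated data, whose errors were drawn independently for both fold changes and so did not mimic the shared Input.

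The genes and lists were chosen with earlier results of these data known. Genes were named by this rule, among those with a symbol: the 8 highest and 8 lowest called changes in each comparison, the 8 largest called differences each way, the 10 highest baseMeans, the extremes of each family, the genes beside the baseMean threshold, and their parents. CFL1P1, CCT6P3, RPL32P3, LRP5L, STAG3L3, H2BC19P, H2BC20P, EMC3-AS1, METTL21EP, ZNF883, RHOXF1P1, RHOXF1P3, SMG1P1, SCAND2P, FAM86HP, FAM86FP and ENSG00000257489 were added after their values were seen. A comparison of a further pseudogene with its parent is not reported here. Coordinates and exons came from GENCODE release 44 on hg38, and parents from blastn 2.17.0 alignment to protein-coding transcripts. The minimum of 300 aligned bases was set after the alignments were seen. Python 3.11.15, pandas 2.3.3 and scipy 1.17.1 were used.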

Additional observations from a re-analysis of the deposited data

How the results depend on the processing

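No paired analysis was possible because values per library were not analysed here. For the same reason leaving out each replicate and a replicate block were not run. No direction reversed under the alternatives run. With a log2 cut-off of 1, 28 pseudogenes were enriched with PABPN, 2 depleted from PABPN, 13 enriched with PABPC and 3 higher with PABPC than with PABPN (11.8%, 0.844%, 5.49% and 1.27%, against 5.75%, 4.29%, 24% and 24.5% of all genes). At that cut-off 110 were depleted from PABPC (46.4%, against 23.4%) and 154 higher with PABPN (65%, against 26.6%). With a Wald test against changes beyond 0.5, 27 were enriched with PABPN, 1 depleted from PABPN, 11 enriched with PABPC and 3 higher with PABPC. With baseMean above 200 in both tables (155 genes), 2 were depleted from PABPN, 16 enriched with PABPC and 4 higher with PABPC. Shares over all genes are not given for the Wald test and this baseMean, so these counts do not show whether the contrast with all genes held. In an alternative chosen after seeing the data, the 123 genes with under 10% of their windows shared with parent or other pseudogenes, 41 were enriched with PABPN (33.3%), 16 enriched with PABPC (13%), 71 depleted from PABPC (57.7%) and 83 higher with PABPN (67.5%). The setting with baseMean above 200 tests fewer genes by construction. The one on shared windows counts fewer pseudogenes, with the calls of the main result. Centring on the median of all genes gave 81 enriched with PABPN (34.2%, against 19.2% of all genes) and 148 depleted from PABPC (62.4%, against 35.6%). Without a baseMean minimum, 93 of 419 genes were enriched with PABPN (22.2%, against 13.8% of all genes) and 190 depleted from PABPC (45.3%, against 29.8%). For the named genes, 42 of 136 calls were lost under the Wald test and 5 under centring.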
